A study of Arabidopsis thaliana with 4 samples.

Results

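The genes of the mitochondrial genome of *Arabidopsis thaliana* were followed in RNA sequencing of whole seedlings. They were taken as all genes listed in the count tables whose identifier starts with ATMG, which gave 152 of 32833 genes. Ratios were computed for the 40 of them with 10 or more counts in at least 2 of the 4 libraries. Seedlings were 14 days old and grown on plates in long days, with 16 h of light and 8 h of dark, although in 3 of the 4 sample labels the source description gives a longer dark period. Col-0 is the wild-type accession, and *mettl4-1* is a single T-DNA insertion line in the Columbia background with the insertion in an exon of *METTL4*, a gene for an RNA adenosine methyltransferase. By the sample labels, each genotype had 2 replicates. The labels do not say that these came from separate cultures, so the p-values measure only the spread between these libraries.

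Plant mitochondria keep a small genome of their own. It encodes subunits of the respiratory chain complexes and of the ATP synthase, proteins for cytochrome c maturation, some ribosomal proteins, and ribosomal and transfer RNAs, while most mitochondrial proteins are encoded in the nucleus and imported. Mitochondrial transcripts in plants carry no stable long poly(A) tail, and a tail there marks an RNA for decay, whereas nuclear mRNA is tailed. The libraries were made with a stranded mRNA kit of the kind that captures RNA by its poly(A) tail. A large piece of mitochondrial DNA also lies in the nuclear genome, on chromosome 2 near the centromere.

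The reference annotation, RefSeq TAIR10.1, names mitochondrial genes by tags that are not paired with the ATMG identifiers. Of the 152 genes, 53 were identified only because a nuclear gene is annotated as similar to them. For 24 of these 53 the annotation gives a worded description, 21 are described as unknown proteins, and 8 are named only by a nuclear pseudogene. The other 99 genes are given by identifier alone.

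The nuclear relatives are close copies. Of the 367808 bp of the RefSeq mitochondrial genome, 72.7% lay in alignments to chromosome 2 of at least 100 bp and 99% identity. The gene *nad3*, for a subunit of NADH dehydrogenase (complex I), was covered over 100% of its length, as were *cob* (apocytochrome b), *atp1* and *atp9* (ATP synthase), *cox3* (cytochrome c oxidase) and *rps12* (a ribosomal protein). *cox1*, *nad4L*, *atp4*, *ccmB* and the ribosomal RNA genes *rrn5* and *rrn18* were covered over 0% of theirs, and *rrn26* over 0.41%. The start of *nad3*, at mitochondrial positions 288044 to 288073 on the plus strand, and that of its nuclear counterpart AT2G07751, at chr2:3270008-3270037 on the plus strand, are shown because they are the same in every base, as are the 357 bp of the whole gene.
nad3: atgtcagaatttgcaccaatttctatctat
AT2G07751: atgtcagaatttgcaccaatttctatctat

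A read from such a stretch fits both places equally well. The gene for ribosomal protein L2, *rpl2*, is shown as a case where the copies can be told apart in a few places. Over the 2565 bp of AT2G07715, the nuclear gene annotated as similar to ATMG00560, there were 4 mismatches to the mitochondrial genome. Capitals mark the bases that differ. The first window lies at mitochondrial positions 222077 to 222105 on the minus strand and at chr2:3411685-3411713 on the plus strand.
rpl2 window 1: ctgccttctcctctCCaaaggccaagaga
AT2G07715 window 1: ctgccttctcctctTTaaaggccaagaga
The second lies at mitochondrial positions 221790 to 221818 on the minus strand and at chr2:3411972-3412000 on the plus strand.
rpl2 window 2: tcgaagccgaagacGgatcaaggtaactt
AT2G07715 window 2: tcgaagccgaagacAgatcaaggtaactt
All sequences and positions are those of RefSeq TAIR10.1. The authors mapped reads to TAIR10, and its mitochondrial sequence was not compared with this one.

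The libraries held between 50862075 and 66003824 counts, so that a floor of 3 counts equals 0.0451 to 0.0593 CPM (counts scaled to a library of 1e6 and normalised by TMM). *METTL4* (AT1G19340) had 355 and 413 counts in the Col-0 libraries, against 35 and 46 in those of *mettl4-1*, or 6.33 ± 0.180 and 0.793 ± 0.142 CPM (SD, n = 2), a log2 fold change of −2.99 (SE 0.14; edgeR, Benjamini-Hochberg adjusted p = 8.6e-07). One deposited table, that of *mettl4-1* replicate 2, bears the name of a different allele, and its count column is headed as replicate 1, like that of the other *mettl4-1* table. Both tables hold different values, so which *mettl4-1* library is replicate 1 and which is replicate 2 rests on the sample labels, which were followed. That both libraries come from the same mutant line rests on these labels too. All SD and p-values given here treat them as replicates of the same genotype. Markers of leaf (3 genes, 1.87% to 2.19% of counts) and root hair (3 genes, 0.00412% to 0.00451%) were present in all 4 libraries, as a seedling should have, and none of these 6 genes changed by 1.5-fold. All 3 leaf genes nevertheless fell in *mettl4-1* with an adjusted p under 0.05 (edgeR, Benjamini-Hochberg), *CAB1* by 0.53, *RBCS1A* by 0.15 and *RCA* by 0.07 on the log2 scale. The 5 seed storage protein genes differed by genotype, at 0.00578% and 0.00582% of counts in Col-0 against 0.000271% and 0.000281% in *mettl4-1*, with 3 of the 5 at 0 in both *mettl4-1* libraries. The part of the leaf and seed genes in the results below was not tested.

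Mitochondrial genes took a larger share of the counts in *mettl4-1* than in Col-0. The share was 0.165% in Col-0 replicate 1 (95% Wilson interval 0.164% to 0.166%), 0.133% in Col-0 replicate 2 (0.132% to 0.133%), 0.803% in *mettl4-1* replicate 1 (0.801% to 0.806%) and 0.325% in *mettl4-1* replicate 2 (0.324% to 0.327%). These intervals cover counting error only, and the groups did not overlap. The means were 0.149% ± 0.0232 and 0.564% ± 0.338 (SD, n = 2 each), a 3.79-fold difference. With 2 against 2 libraries, the two-sided exact permutation test gave p = 0.333, the smallest it can give here. The *mettl4-1* replicates were far apart, at 5.39 times the Col-0 mean for replicate 1 and 2.18 times for replicate 2. In whole seedlings, fewer cells of a type and less RNA per cell cannot be told apart.

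ATMG01390 and ATMG00020 held 96.4% to 97.6% of the mitochondrial counts in each library. ATMG01390 had 60540 and 54770 counts in the Col-0 libraries, against 286024 and 116076 in those of *mettl4-1*, which are 962 ± 197 and 3957 ± 2406 CPM (SD, n = 2), a log2 fold change of 2.04 (SE 0.31; edgeR, Benjamini-Hochberg adjusted p = 0.00622). For ATMG00020 the counts were 27182 and 29631 in Col-0 and 119895 and 45458 in *mettl4-1*, a log2 fold change of 1.79 (SE 0.32; edgeR, Benjamini-Hochberg adjusted p = 0.0128). Neither is named by a nuclear gene, and both *mettl4-1* libraries lay above both Col-0 libraries for each. The count of ATMG01390 was 2.23 and 1.85 times that of ATMG00020 in Col-0, and 2.39 and 2.55 times in *mettl4-1*. Counts are not scaled by gene length, so this ratio is one of counts and not of transcript levels. Without *mettl4-1* replicate 1, the log2 fold changes of ATMG01390 and ATMG00020 were 1.23 and 0.91.

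Leaving out both genes, a step chosen after seeing the data, the remaining genes held 0.00504% and 0.00471% of counts in the Col-0 libraries, against 0.0213% and 0.00783% in those of *mettl4-1*. That is 2.99-fold more in *mettl4-1*, with replicate 1 at 4.37 times the Col-0 mean and replicate 2 at 1.61 times. Both *mettl4-1* libraries again lay above both Col-0 libraries.

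Other RNAs without a stable poly(A) tail were also highest in *mettl4-1* replicate 1. Chloroplast genes held 0.527% and 0.581% of counts in the Col-0 libraries, against 1.87% and 0.704% in those of *mettl4-1*. The nuclear genes of 18S ribosomal RNA, AT2G01010 and AT3G41768, held 0.495% and 0.369% in Col-0 and 3.65% and 1.25% in *mettl4-1*, 5.67-fold more. As for the mitochondrial genes, *mettl4-1* replicate 1 was the highest of the 4 libraries and replicate 2 came next. Their part in the mitochondrial result was not tested, and with 2 libraries per genotype the genotype and a difference in library make-up cannot be told apart.

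**Figure D1:**
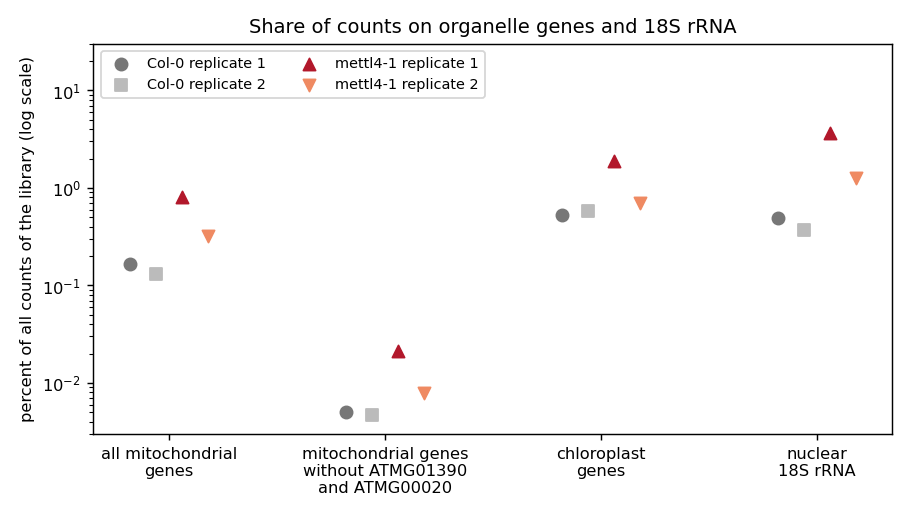
Percent of all counts of each library (log axis) on the mitochondrial genes, on these without ATMG01390 and ATMG00020, on chloroplast genes and on nuclear 18S rRNA. Each point is 1 of the 4 libraries; in every column *mettl4-1* replicate 1 is the highest and *mettl4-1* replicate 2 the second highest, for the mitochondrial genes at 0.803% and 0.325%.

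Gene by gene, 39 mitochondrial genes passed the filter on low counts and were tested among 21673 genes. Of these, 29 rose in *mettl4-1* by at least 1.5-fold with an unadjusted p under 0.05, and 0 fell. That is 74.4% of the tested mitochondrial genes, against 0.937% of all tested genes called higher and 0.683% called lower. Without *mettl4-1* replicate 1 the count was 16, all of them among the 29. With the Benjamini-Hochberg adjusted p of edgeR in place of the unadjusted one, 13 of the 39 passed, against 0.314% of all tested genes. By adjusted p, DESeq2 and limma-voom called only 3 each. DESeq2 called ATMG00510, ATMG01200 and ATMG00480, and limma-voom called ATMG00510, ATMG01390 and ATMG00020, so that ATMG00510 alone passed with all 3 tools. All 39 log2 fold changes were above 0, with a median of 1.70 and a range of 0.14 to 2.73, and the median over all tested genes was 0.00. Without *mettl4-1* replicate 1 the median over the mitochondrial genes was 0.64. The rise was not particular to mitochondrial genes. Of 103 tested chloroplast genes, 56 (54.4%) were called higher and 0 lower, with a median log2 fold change of 0.93.

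Both *mettl4-1* libraries lay above both Col-0 libraries in 29 of the 39 genes, 26 of which were also called, and below both in 0. Among all tested genes 22.8% lay above in this way and 23% below. The other 10 mitochondrial genes overlapped between genotypes.

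Each *mettl4-1* library was also set against the Col-0 mean on its own, over the 40 genes with enough counts, with no test. Of these, 35 had 10 or more counts in both Col-0 libraries, and 0 reached that number in *mettl4-1* alone. In *mettl4-1* replicate 1 the median log2 ratio of normalised counts was 2.16, or 4.48-fold, and ranged from 0.19 to 3.45. All 40 genes lay above both Col-0 libraries there, and 30 were at 2-fold or more. *mettl4-1* replicate 2 had a median of 0.60, or 1.52-fold, with a range of −0.24 to 1.79. In that library 29 genes lay above both Col-0 libraries, 7 between them and 4 below, and 11 were at 2-fold or more. The median log2 ratio over nuclear genes was 0.00 in each of these libraries. Over chloroplast genes it was 1.32 in *mettl4-1* replicate 1 and 0.35 in *mettl4-1* replicate 2. For the counts of genes above, between or below the Col-0 libraries in a single library, the share over all tested genes is not given here. The same holds for the count of genes higher in replicate 1 than in replicate 2 below.

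The median difference between replicates was much larger in *mettl4-1* than in Col-0. Replicate 1 exceeded replicate 2 in all 40 genes, with a median log2 ratio of 1.34 and a range of 0.03 to 2.63. Between the Col-0 replicates the median log2 ratio of replicate 2 to replicate 1 was −0.07, with a range of −1.46 to 0.91. Replicate 2 was the higher in 17 of the 40. Single genes thus also differed between the Col-0 replicates, but in both directions.

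**Figure D2:**
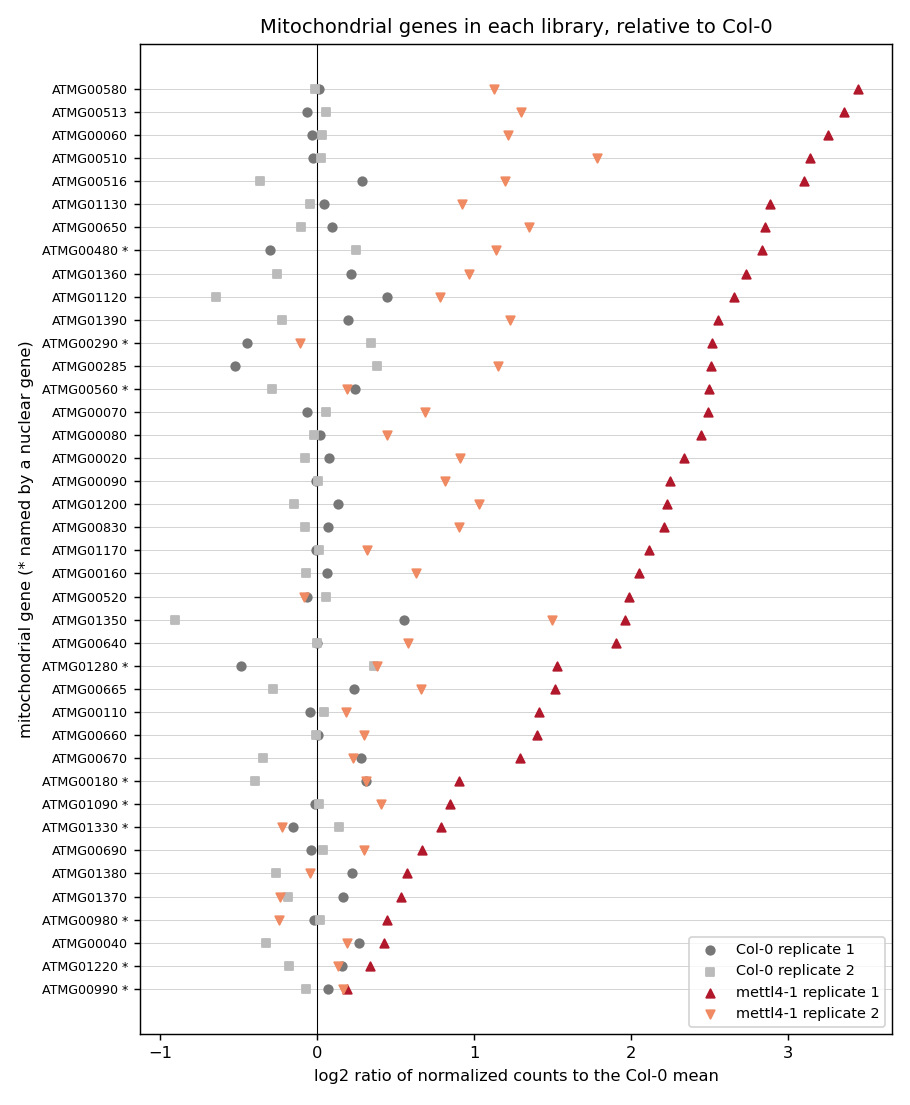
Log2 ratio of normalised counts to the Col-0 mean (horizontal axis) for the 40 mitochondrial genes with 10 or more counts in at least 2 libraries (vertical axis, ordered by *mettl4-1* replicate 1). Each gene has 1 point per library, and an asterisk marks a gene named by a nuclear gene; replicate 1 of *mettl4-1* lies to the right of both Col-0 points in all 40, replicate 2 in 29.

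The 5 genes with the highest log2 fold changes did not include ATMG01390 or ATMG00020, and none of them is named by a nuclear gene. ATMG00580 had 15 and 18 counts in the Col-0 libraries, against 154 and 31 in those of *mettl4-1*. Its log2 fold change of 2.73 (SE 0.65) was the highest of the 39, yet the adjusted p was 0.0527 (edgeR, Benjamini-Hochberg). ATMG00513 had 28 and 37 counts in the Col-0 libraries, against 280 and 68 in those of *mettl4-1*, a log2 fold change of 2.67 (SE 0.56; edgeR, Benjamini-Hochberg adjusted p = 0.0304). ATMG00510 had 66 and 83 counts in Col-0 against 548 and 218 in *mettl4-1*, with a log2 fold change of 2.62 (SE 0.37). Of the 39, it had the lowest adjusted p, 0.00462 (edgeR, Benjamini-Hochberg). It also had the highest ratio in *mettl4-1* replicate 2, at 3.45 times the Col-0 mean. ATMG00060 had 68 and 86 counts in the Col-0 libraries, against 613 and 152 in those of *mettl4-1*, and ATMG00516 had 39 and 30 against 255 and 69. Their log2 fold changes were 2.57 and 2.48, with edgeR, Benjamini-Hochberg adjusted p of 0.0269 and 0.0341. For all 5 genes the groups did not overlap. The size and order of these changes rested on *mettl4-1* replicate 1. Without it the log2 fold changes were 1.79 for ATMG00510, 1.30 for ATMG00513, 1.23 for ATMG00516, 1.22 for ATMG00060 and 1.14 for ATMG00580, so that ATMG00580 was no longer the highest.

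The remaining 7 genes with an adjusted p under 0.05 were higher in both *mettl4-1* libraries, with replicate 1 well above replicate 2. ATMG00650 had 129 and 136 counts in the Col-0 libraries, against 804 and 289 in those of *mettl4-1* (log2 fold change 2.30). ATMG01130 had 51 and 58 against 339 and 88 (2.22), and ATMG01360 had 174 and 152 against 917 and 275 (2.12). The changes of ATMG01200, ATMG00090 and ATMG00160 were smaller, with log2 fold changes of 1.77, 1.70 and 1.51. ATMG01200 had 21 and 21 counts in the Col-0 libraries, against 84 and 37 in those of *mettl4-1*. ATMG00640 had 407 and 494 against 1402 and 569 (log2 fold change 1.39). Adjusted p for these 7 genes ran from 0.0107 to 0.0493 (edgeR, Benjamini-Hochberg). Without *mettl4-1* replicate 1 their log2 fold changes lay between 0.58 for ATMG00640, which was then no longer called, and 1.36 for ATMG00650.

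ATMG00080, ATMG00070 and ATMG00660 were called without reaching an adjusted p under 0.05. ATMG00080 had 148 and 174 counts in the Col-0 libraries, against 734 and 186 in those of *mettl4-1*, so that replicate 2 was at 1.36 times the Col-0 mean and replicate 1 at 5.46 times. ATMG00070 had 110 and 145 against 596 and 173. ATMG00660 had 156 and 187 against 378 and 179, with a log2 fold change of 0.95 (SE 0.27; edgeR, Benjamini-Hochberg adjusted p = 0.105). Without *mettl4-1* replicate 1, ATMG00070 had a log2 fold change of 0.68, and ATMG00080 and ATMG00660, at 0.45 and 0.30, were not called.

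The 10 tested genes that were not called lay between 1.14-fold and 2.66-fold of the Col-0 mean in *mettl4-1* replicate 1. The 5 lowest log2 fold changes included a pair with a description. ATMG00990 is described as NADH dehydrogenase 3, a membrane subunit of complex I. It had 51 and 56 counts in the Col-0 libraries, against 51 and 51 in those of *mettl4-1*, and its log2 fold change was 0.18 (SE 0.21; edgeR, Benjamini-Hochberg adjusted p = 0.743). ATMG00980 belongs to the S12/S23 family of ribosomal proteins, which sit at the decoding centre of the small ribosomal subunit. It had 40 and 50 counts in the Col-0 libraries, against 51 and 32 in those of *mettl4-1*, and the lowest log2 fold change of the 39, 0.14 (SE 0.27; edgeR, Benjamini-Hochberg adjusted p = 0.863).

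ATMG01220, annotated as unknown, had 25 and 24 counts in the Col-0 libraries, against 26 and 23 in those of *mettl4-1*. ATMG01370 had 96 and 91 against 114 and 68, and ATMG01380 had 45 and 39 against 53 and 35. For ATMG00980, ATMG01370 and ATMG01380 the sign turned without *mettl4-1* replicate 1, to −0.25, −0.22 and −0.03.

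The shares of single genes among the mitochondrial counts were compared without a test. Leaving out ATMG01390 and ATMG00020, ATMG00510 made up 2.39% and 2.67% of the remaining mitochondrial counts in the Col-0 libraries, against 4.95% and 5.47% in those of *mettl4-1*. ATMG00650 went from 4.68% and 4.38% to 7.26% and 7.25%, nearly the same in both *mettl4-1* libraries although their totals differed. ATMG01370 had 3.48% and 2.93% in Col-0 and 1.03% and 1.71% in *mettl4-1*, and ATMG00660 had 5.65% and 6.02% against 3.42% and 4.49%. ATMG00990 had 1.85% and 1.80% in the Col-0 libraries, then 0.461% and 1.28% in those of *mettl4-1*. ATMG00090 stayed within 11.5% to 13.2% in all 4 libraries. A share falls when other genes rise.

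A worded description is given for 8 of the 40 genes. ATMG00990 and ATMG00980 were described above, and the other 6, which the rule for named genes does not cover, were picked with their values known. ATMG01090 is described as ATP synthase 9, but this description is doubtful. Its nuclear counterpart AT2G07777 aligned over 59.3% of its length, to a mitochondrial stretch without a named coding sequence. The gene *atp9* itself was matched by AT2G07671, the counterpart of ATMG01080. ATMG01090 had 55 and 68 counts in the Col-0 libraries, against 92 and 69 in those of *mettl4-1*, a log2 fold change of 0.64 (SE 0.20; edgeR, Benjamini-Hochberg adjusted p = 0.149). ATMG00480, described as subunit 8 of the F0 part of the ATP synthase, had 6 and 11 against 52 and 16 (log2 fold change 2.24; edgeR, Benjamini-Hochberg adjusted p = 0.0731). ATMG01280, described by similarity to subunit II of cytochrome c oxidase, had 8 and 18 against 31 and 14 (log2 fold change 1.04). Both *mettl4-1* libraries lay above both Col-0 libraries in CPM for these 3 genes. For ATMG01280 this was a near tie, with 0.272 CPM in *mettl4-1* replicate 2 against 0.270 in Col-0 replicate 2.

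ATMG00560, described as an OB-fold nucleic acid-binding protein, had 31 and 26 counts in the Col-0 libraries, against 138 and 28 in those of *mettl4-1*, so that the groups overlapped and replicate 1 alone was high. ATMG00180, described for cytochrome c biogenesis, had 15 and 11 against 21 and 14 and was not called. ATMG00290, described as mitochondrial ribosomal protein S4, had 5 and 11 against 39 and 6 and did not pass the filter of the test.

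The genes named by a nuclear gene held few counts. Of the 53, 10 (18.9%) reached 10 counts in 2 libraries, 17 were at 0 in all 4 libraries, and the highest count was 138. Among the other 99, 30 (30.3%) reached 10 counts in 2 libraries, 33 were at 0 in all 4, and the highest count was 286024. Summed counts over the 53 were 330 and 386 in Col-0 and 774 and 366 in *mettl4-1*. Over the 99 they were 90151 and 87123, and 416212 and 165152. The size of this contrast came mostly from ATMG01390 and ATMG00020, both among the 99. Per library, this pair made up 96.4% to 97.6% of all mitochondrial counts. Without the pair, both sets together summed to 2759 and 3108 for the Col-0 libraries. For *mettl4-1* replicates 1 and 2 that sum was 11067 and 3984. Of 9 tested genes among the 53, 4 were called higher with a median log2 fold change of 0.64. Of 30 tested among the 99, 25 were called higher with a median of 1.77, beside 0.937% of all tested genes called higher. The difference between these sets was not tested, and counts were not scaled by gene length. The split is one of annotation and does not separate genes with a nuclear copy from genes without. *nad6* and *nad7*, for example, were covered over 100% of their length on chromosome 2, but no description among the 53 names them.

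**Figure D3:**
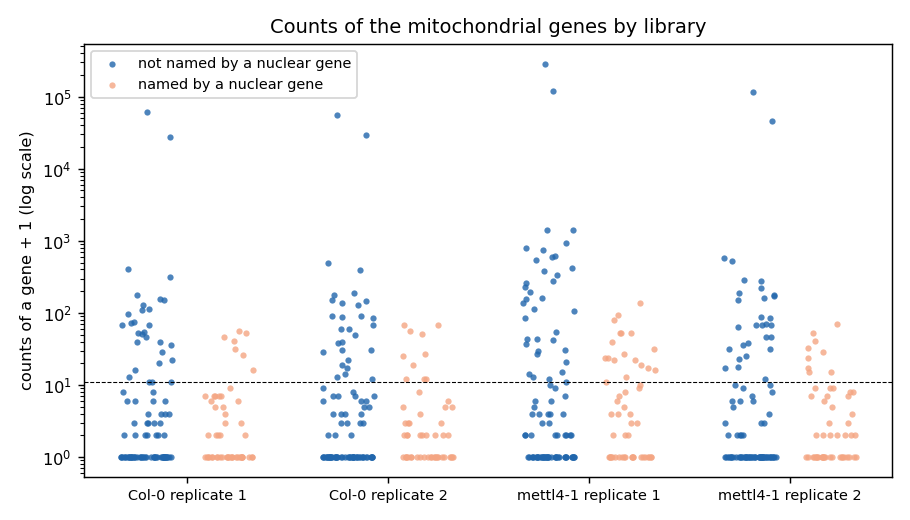
Counts + 1 of each of the 152 mitochondrial genes (log axis) in the 4 libraries, split into the 53 named by a nuclear gene and the 99 that are not. Each point is a gene, points are spread sideways for legibility, and the dashed line marks 10 counts; the highest points, ATMG01390 and ATMG00020, belong to the 99, and no gene of the 53 is above 138 counts.

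Counts on the nuclear counterparts are given beside those of the mitochondrial genes, for pairs picked with their values known, because a near-identical copy makes the values of both uncertain. ATMG00220, described as apocytochrome b, the membrane core of complex III, had 0 and 0 counts in the Col-0 libraries, against 5 and 1 in those of *mettl4-1*. Its nuclear counterpart AT2G07727, identical to the mitochondrial genome over 3243 bp, had 46 and 36 against 293 and 78. ATMG01190, described as ATP synthase subunit 1, had 6 and 4 counts in the Col-0 libraries, against 21 and 8 in those of *mettl4-1*, while AT2G07698, with 1 mismatch over 2665 bp, had 111 and 128 against 747 and 256. For ATMG00220 and ATMG01190, most counts stood on the nuclear identifier.

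The same held for ATMG00730, described as cytochrome c oxidase subunit 3, with 5 and 1 counts in the Col-0 libraries, against 16 and 6 in those of *mettl4-1*. Its counterpart AT2G07687 had 14 and 17 against 120 and 30. For NADH dehydrogenase 3, whose identical copies were printed above, AT2G07751 had 70 and 107 counts in the Col-0 libraries, against 87 and 75 in those of *mettl4-1*. The counterpart of ATMG00980, AT2G07675, had 54 and 69 against 64 and 61. AT2G07715, the copy of *rpl2* that differs in the windows printed above, had 65 and 71 against 148 and 75. Other pairs went the opposite way. ATMG00480 had 6 and 11 against 52 and 16, but its counterpart AT2G07707 had 0 and 0 against 1 and 0. ATMG01275, described as NADH dehydrogenase 1A, had 4 and 4 against 15 and 8, while AT2G07785 had 2 and 1 against 6 and 1. AT2G07734, the counterpart of ATMG00290, had 0 counts in all 4 libraries.

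In the count tables, 46 nuclear genes annotated as similar to a mitochondrial gene were listed, all on chromosome 2. Of the 13 that were tested, 10 were called higher and 0 lower, with a median log2 fold change of 2.32. The called genes included AT2G07678, AT2G07681 and AT2G07689, with log2 fold changes of 2.64, 2.36 and 3.12. Each stayed below 10 counts in both Col-0 libraries but reached that number in both *mettl4-1* libraries. They thus passed the filter on low counts through *mettl4-1* alone, which favours a rise. The share called and the median partly reflect this selection. Among all tested genes 0.937% were called higher and 0.683% lower. How reads were divided between the copies was not tested, and the mapping-quality threshold of the authors is not given in the sources used here.

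The 112 genes outside the ratios comprised 50 at 0 in all 4 libraries and 62 with some counts, the highest being 29. Summed, these 112 genes had 117 and 124 counts in the Col-0 libraries, against 367 and 145 in those of *mettl4-1*. The library with the most was again *mettl4-1* replicate 1. ATMG09980, chosen after its values were seen, went the other way, with 10 and 5 counts in the Col-0 libraries, against 0 and 0 in those of *mettl4-1*. A count of 0 allows up to 3 counts, so this difference rests on few reads.

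Nuclear genes that serve mitochondria showed no change of this size. A list of 27 genes, all tested, held 25 for proteins that act on mitochondrial RNA and 2, *RECA3* and *MSH1*, for proteins of DNA recombination and repair. Of the 27, 0 were called in either direction, also with DESeq2, and 0 had an adjusted p under 0.05 (edgeR, Benjamini-Hochberg), while 3 had an unadjusted p under 0.05, all higher and none of the 3 a DNA repair gene. Among all tested genes 0.937% were called higher and 0.683% lower, and 6.83% were higher and 8.4% lower by an unadjusted p alone. At such shares of calls, 0 calls in a list of this length say little by themselves. The log2 fold changes of the 27 lay between −0.07 and 0.24, with a median of 0.02.

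Nuclear genes described as belonging to respiratory complexes had a median log2 fold change of 0.00 over 49 tested genes, of which 0 were called higher and 1 lower. Over all tested genes the shares called were 0.937% and 0.683%. Of the 49, 4 are not subunits. *SDHAF2* and AT5G67490 are described as assembly factors and AT5G51220 as a chaperone. *BCS1*, which the stress list below also holds, entered by a description that names the synthesis of cytochrome BC1, and a role in complex III was not checked. The median over the other 45 was −0.01, with the same call. By an unadjusted p under 0.05 alone, 1 was higher and 5 were lower, beside 6.83% and 8.4% of all tested genes. The called gene was *SDH2-3* (AT5G65165), an iron-sulfur subunit of succinate dehydrogenase, with 12 and 15 counts in the Col-0 libraries, against 6 and 4 in those of *mettl4-1*, a log2 fold change of −1.16 (SE 0.49; edgeR, Benjamini-Hochberg adjusted p = 0.295). AT5G13430, a gene for the iron-sulfur subunit of complex III, had a small fall of its own, with a log2 fold change of −0.20 (SE 0.04; edgeR, Benjamini-Hochberg adjusted p = 0.0269). AT5G13440, with the same description and more counts in every library, was at −0.06 (SE 0.03; edgeR, Benjamini-Hochberg adjusted p = 0.394). DESeq2 did not call *SDH2-3*, nor did edgeR without any 1 of the 4 libraries.

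Among 12 nuclear genes of the mitochondrial stress response, 0 reached a change of 1.5-fold in edgeR, 6 had an unadjusted p under 0.05, all higher, and DESeq2 called 0. Their median log2 fold change was 0.08. Of all tested genes, 0.937% were called higher and 0.683% lower, so 0 calls among 12 genes say little by themselves. Smaller rises with an adjusted p under 0.05 were found for 4 of the 12, beside 0.96% of all tested genes higher by an adjusted p alone and 6.83% by an unadjusted one. *AOX1A*, the alternative oxidase that bypasses the cytochrome pathway, had 12822 and 15412 counts in the Col-0 libraries, against 13409 and 13728 in those of *mettl4-1*, a log2 fold change of 0.20 after normalisation (SE 0.03; edgeR, Benjamini-Hochberg adjusted p = 0.00543). *NDB4*, an alternative NAD(P)H dehydrogenase, had the largest of the 4, at 0.39 (SE 0.06; edgeR, Benjamini-Hochberg adjusted p = 0.00642). The other two were AT5G51440, a small heat shock protein, at 0.21, and AT2G21640, a marker of oxidative stress, at 0.17. The rule for named genes does not cover these 4, AT5G13430 or AT5G13440, which were picked with their values known.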

How the data were processed

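RNA from 4 libraries was analysed, 2 of Col-0 and 2 of *mettl4-1*. The authors deposited raw counts per gene. By their methods, reads were trimmed with Cutadapt 3.5, aligned to TAIR10 using Hisat2 2.2.1, filtered on mapping quality with SAMtools 1.13 and counted by FeatureCounts 2.0.1. The settings for strand and for reads with several positions are not given in the sources used here. Such settings decide the counts of genes with a near-identical copy.

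All 4 libraries entered a single fit across all genes in R 4.3.3 with edgeR 4.0.16 (TMM, filterByExpr by genotype, glmQLFit and glmQLFTest, genotype as the only term). Genes were called at a change of at least 1.5-fold with an unadjusted p under 0.05, which are the thresholds of the study, and Benjamini-Hochberg adjusted p-values cover all 21673 genes tested. Ratios of single libraries used a prior of 0.5 counts. Alternatives used limma 3.58.1 and DESeq2 1.42.0, and the fits were tested on simulated counts. Sequences were aligned with blastn 2.17.0+. Counts were not scaled by gene length, because no lengths were paired with the ATMG identifiers, so an order of counts between genes is not an order of transcript levels.

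The genes named were the 12 with the highest mean CPM, the 5 highest and 5 lowest log2 fold changes among tested mitochondrial genes, those with an adjusted p under 0.05, *METTL4*, and up to 3 called genes of each nuclear list. Genes of respiratory complexes were found by words in their descriptions, and the other lists were written from general knowledge. The members and lists were chosen with earlier results of these data known.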

Additional observations from a re-analysis of the deposited data

How the results depend on the processing

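The tested mitochondrial genes kept a positive median log2 fold change under every alternative run, from 0.64 to 2.12 when single libraries were left out. Of 29 genes called higher, 13 remained with the adjusted p and 16 to 32 genes were called when a library was left out, the lowest without *mettl4-1* replicate 1. The lone library of a genotype was then assumed to vary like the others. DESeq2 called 22 of the 29 and limma-voom 26, each with 3 by adjusted p. Without a filter on low counts 41 genes were called higher and 1 lower, ATMG09980. With a replicate block 28 were called, 24 by adjusted p, but same-numbered libraries did not deviate together (correlation −0.02 over 21673 genes), so that the numbers do not pair the libraries. The median log2 ratio to Col-0 replicate 1 alone was 2.11 for *mettl4-1* replicate 1 and 0.49 for replicate 2, and the latter was 0.66 against Col-0 replicate 2 alone. The ratio of mitochondrial shares ran from 2.18 to 5.39 with single libraries left out. The list of respiratory complex genes had 0 called genes with DESeq2, with the replicate block and without any 1 library. Without *mettl4-1* replicate 1, the log2 fold changes of ATMG01370 (−0.22), ATMG01380 (−0.026) and ATMG00980 (−0.25) were reversed, and without *mettl4-1* replicate 2 they were 0.55, 0.60 and 0.45. Without replicate 1, ATMG00640, ATMG00080 and ATMG00660 lost their call. DESeq2 also did not call ATMG00080 and ATMG00660. The *mettl4-1* replicates differed beyond their counting error for the mitochondrial share, so with 2 libraries per genotype the spread between replicates limits its precision. The 62 genes with counts under the minimum allow no comparison of their own.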
